A study of Mus musculus with 2 samples.

Results

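Astrocytes of the ventral hippocampus (vHPC) were the most numerous of the 17 main cell types of this single-cell data set, with 2352 of 8477 cells. They were taken as all cells that the deposited table assigns to the clusters Astrocytes_1 to Astrocytes_5, and these 5 clusters make up the study's astrocyte class without remainder. The cells came from male mice on a mixed C57BL/6J and C57BL/6N background, aged 11 to 12 weeks per the labels (the methods give a slightly wider range). WT mice carry the valine form of adenylyl cyclase 2 (ADCY2-V151), and L151 mice are homozygous for the leucine variant ADCY2-L151, which was introduced with CRISPR/Cas9. The mutation is present in every cell type and not in astrocytes alone. Each genotype is represented by 1 library, because the study excluded 1 of its 2 samples per genotype, so nothing in the data gives the spread between mice. No test between genotypes was therefore made, and a difference between genotypes cannot be told apart from a difference between a pair of dissections and libraries. The WT library holds 1173 astrocytes and the L151 library 1179.

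Astrocytes are the glial cells that ensheath synapses and vessels. They clear glutamate and potassium from the extracellular space, pass metabolites to neurons and are coupled to each other through gap junctions. They are usually recognised in expression data by Aqp4, the water channel of the perivascular endfeet, Slc1a3, a glutamate transporter, Aldoc, a glycolytic aldolase, and Gja1, which encodes the gap junction protein connexin 43. Adenylyl cyclases make cAMP, which in astrocytes is a well known trigger of glycogen breakdown. Counts per gene were not analysed here, so the cluster names stand as deposited and were not checked against these markers. What the table gives for every cell is the number of unique molecular identifiers (UMIs, each standing for one captured RNA molecule), how many genes were detected, the percentage of UMIs from mitochondrial genes and a doublet score, which ranks how much a cell resembles a mixture of other cells.

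Between the genotypes the astrocytes were found in nearly equal proportion to the other non-neuronal cells. They made up 43.9% of the non-neuronal cells of the WT library (95% exact binomial interval 42.0 to 45.8%) and 43.9% of those of the L151 library (42.0 to 45.8%), an L151/WT ratio of 1.001 (0.923 to 1.09). As a share of all cells they were lower in L151, with 26.7% against 28.9%, a ratio of 0.922 (0.849 to 1.0001). When the total excluded the glutamatergic neurons of CA1 and CA3, the ratio was 1.02 (0.944 to 1.11). The intervals cover the counting of cells only. Those of the ratios leave out that a class cannot exceed its total, so they are too wide for large shares. The upper limit of 1.0001 therefore does not show that counting error reaches 1. In terms of RNA, astrocytes contributed 5826720 of 22049587 UMIs in WT, or 26.4%, and 5483859 of 22276085 in L151, or 24.6%.

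The 5 clusters divided the astrocytes unequally and in a similar way in both libraries. Astrocytes_1 held 546 WT and 537 L151 cells, which is 46.5% (43.7 to 49.5%) and 45.5% (42.7 to 48.4%) of the astrocytes. Astrocytes_2 held 335 and 350 cells, or 28.6% and 29.7%, and Astrocytes_3 held 230 and 223 cells, or 19.6% and 18.9%. The L151/WT ratios of these shares were 0.979 (0.867 to 1.10), 1.04 (0.892 to 1.21) and 0.965 (0.799 to 1.16), so for the 3 large clusters the counting interval included 1.

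The small clusters differed more between the libraries. Astrocytes_4 had 25 WT cells, a share of 2.13% (1.38 to 3.13%), and 46 L151 cells, a share of 3.90% (2.87 to 5.17%). The L151 share was 1.83 times the WT share (1.10 to 3.11). Astrocytes_5 had 37 WT cells, a share of 3.15% (2.23 to 4.32%), and 23 L151 cells, a share of 1.95% (1.24 to 2.91%). Here the L151 share was 0.618 times the WT share (0.351 to 1.07). Of the 5 ratios, that of Astrocytes_4 alone had an interval without 1, and it rests on 71 cells and is not adjusted for the number of clusters compared. As a share of all cells, the ratio of Astrocytes_5 was 0.570 (0.323 to 0.985), so for this cluster the denominator decides whether the interval includes 1.

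**Figure D1:**
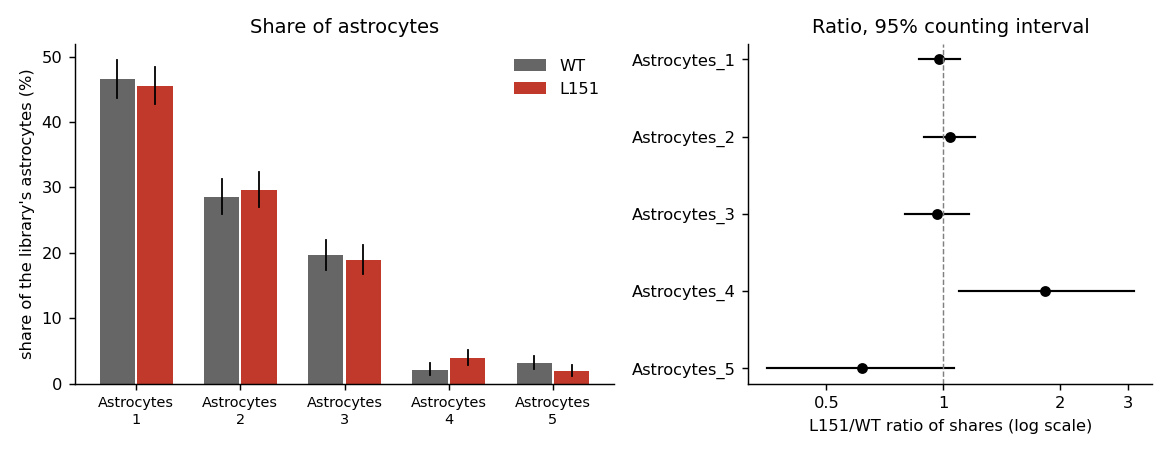
Left, the share of each library's astrocytes in each of the 5 clusters in percent (WT grey, L151 red), with 95% exact binomial intervals as lines. Right, the L151/WT ratio of these shares on a log scale with its 95% counting interval, where Astrocytes_4 (1.83) lies above 1 and the other intervals cross 1.

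Astrocytes fell into a deep and a shallow population, which the clusters followed. Astrocytes_1 had a median of 8014.5 UMIs per cell in WT (quartiles 5907 and 11416) and 7559 in L151 (5548 and 10908). Its own distribution was not a single peak. In L151 its bins held 62 cells at 3.75 to 3.8 log10 UMIs, 34 at 3.9 to 3.95 and 56 at 4.05 to 4.1. In WT they held 53 cells at 3.9 to 3.95, 33 at 4 to 4.05 and 61 at 4.1 to 4.15. Astrocytes_5 was similarly deep, with 7649 UMIs in WT (6078 and 9583) and 6512 in L151 (4608.5 and 8026). In contrast, Astrocytes_2 had 1470 UMIs in WT (1049 and 1877) and 1453.5 in L151 (1092 and 1885.5).

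Astrocytes_3 was the shallowest cluster, with 1189.5 UMIs in WT (849 and 1748) and 930 in L151 (735 and 1375.5). Astrocytes_4 lay between both populations, at 2864 UMIs in WT (2312 and 3562) and 2951.5 in L151 (2231.5 and 3666). Thus the order of the clusters by median UMIs, from Astrocytes_1 over Astrocytes_5, Astrocytes_4 and Astrocytes_2 to Astrocytes_3, was the same in both libraries, which were clustered together by the authors. The upper quartile of Astrocytes_2 stayed below the lower quartile of Astrocytes_1 in each library.

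**Figure D2:**
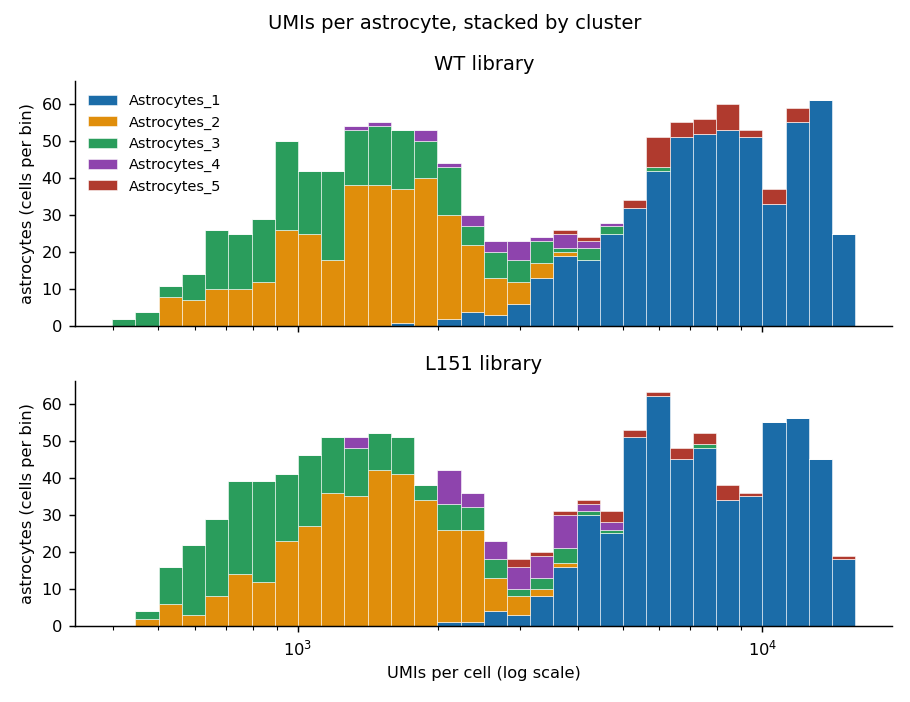
Number of astrocytes per bin of UMIs per cell (log scale), stacked by cluster, in the WT (top) and L151 (bottom) libraries. Astrocytes_2 and Astrocytes_3 form the lower of the peaks, with medians between 930 and 1470 UMIs, Astrocytes_1 and Astrocytes_5 the upper part, with medians between 6512 and 8014.5, and Astrocytes_4 lies in the gap.

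Cluster membership accounted for 80.1% of the variation of log10 UMIs among astrocytes and the library for 0.143%. Astrocytes_2 and Astrocytes_3 together held 1138 cells, which is 48.4% of all astrocytes but 14.6% of their UMIs. Astrocytes_1, with 46.0% of the cells, held 79.7% of the UMIs. A sum of UMIs over all astrocytes of these libraries is therefore made up mostly of Astrocytes_1.

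The number of genes per cell followed the UMIs. Medians were 2901 genes in WT and 2796 in L151 for Astrocytes_1, and 3063 and 2756 for Astrocytes_5. Astrocytes_4 had 1198 and 1188 genes, Astrocytes_2 had 778 and 744, and Astrocytes_3 had 720 and 578. Astrocytes_5 ranked first in WT and Astrocytes_1 in L151, which is the one change of order in this measure. Among the 33 clusters of the data set, Astrocytes_3 ranked 30 of 33 from the highest in WT and 31 of 33 in L151, whereas Astrocytes_1 ranked 11 and 10.

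**Figure D3:**
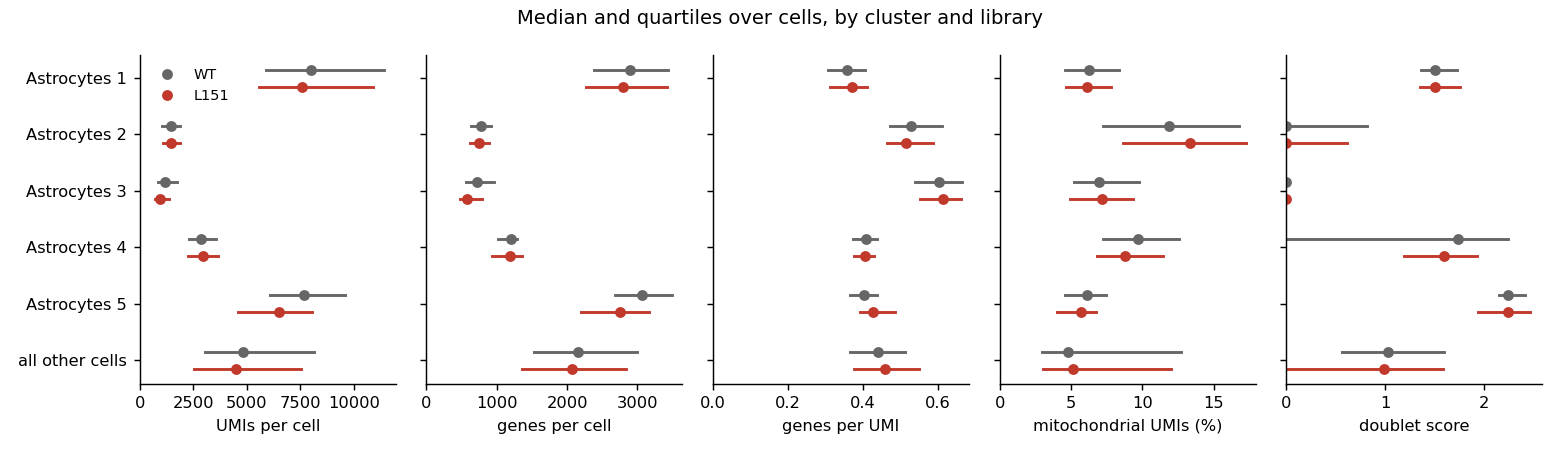
Median (point) and quartiles (line) over cells of UMIs, genes, genes per UMI, mitochondrial percentage and doublet score for each astrocyte cluster and for all other cells, with WT in grey and L151 in red. The clusters differ from each other more than the libraries do, and Astrocytes_2 stands out in mitochondrial content, with 11.9% in WT and 13.3% in L151.

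Over all astrocytes, L151 cells had a median of 2999 UMIs and WT cells of 3258, a ratio of 0.921. The corresponding numbers of genes were 1288 and 1442, a ratio of 0.893. Both ratios turned with at least 500 genes per cell, to 1.02 for UMIs and 1.03 for genes. All other cells differed between the libraries to a comparable extent in median UMIs, with 4479 in L151 and 4842 in WT (ratio 0.925). Their median numbers of genes were 2067 and 2153 (ratio 0.960). The mean number of genes was 1744 in L151 and 1838 in WT astrocytes (ratio 0.949), and 2092 and 2238 in all other cells. In relative terms the genes of L151 cells were lowered more in astrocytes by medians, and more in the other cells by means. The astrocyte median of UMIs lies between the shallow and the deep clusters, above the upper quartile of Astrocytes_3 and below the lower quartile of Astrocytes_1.

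The mean was 4651 UMIs in L151 astrocytes and 4967 in WT astrocytes (ratio 0.936). When the L151 cluster means were combined with the WT cluster shares the ratio was 0.956, and when the WT cluster means were combined with the L151 shares it was 0.976. Either swap alone thus gave a mean below that of WT. The swap of shares is small, and for Astrocytes_1 to Astrocytes_3 the shares of the libraries did not differ beyond counting error.

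Within clusters, the gap in depth was widest in Astrocytes_3. Its L151/WT ratio of median UMIs was 0.782, and its ratio of median genes was 0.803. Of the 32 clusters with at least 20 cells in each library, whose ratios of median UMIs ranged from 0.639 to 1.11 with a median of 0.927, Astrocytes_3 had the fifth lowest, rank 5 of 32. Astrocytes_5 followed at 0.851, rank 8, and Astrocytes_1 (0.943), Astrocytes_2 (0.989) and Astrocytes_4 (1.03) lay above the median of the clusters.

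This difference was also seen in the number of very shallow cells. In Astrocytes_3, 74 of 223 L151 cells had under 500 genes, which is 33.2% (27.0 to 39.8%), against 36 of 230 WT cells, which is 15.7% (11.2 to 21.0%). In Astrocytes_2 the shares were 8.57% (5.86 to 12.0%) in L151 and 8.66% (5.87 to 12.2%) in WT. No cell of Astrocytes_1, Astrocytes_4 or Astrocytes_5 had under 500 genes, and Astrocytes_1 allows a share of up to 0.673% in WT and 0.685% in L151 by the upper exact limit. With far fewer cells, Astrocytes_4 allows up to 13.7% and 7.71%, and Astrocytes_5 up to 9.49% and 14.8%.

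Outside the astrocytes, 8.11% (7.19 to 9.10%) of L151 cells and 3.44% (2.80 to 4.17%) of WT cells had under 500 genes. Most of that difference lay in neurons, with 11.5% (10.1 to 13.1%) in L151 and 3.12% (2.26 to 4.17%) in WT, while the other non-neuronal cells had 4.18% (3.23 to 5.32%) and 3.73% (2.83 to 4.81%). Cells with under 1000 genes made up 43.4% of L151 and 39.4% of WT astrocytes, and 18.3% and 11.0% of the other cells. When cells with under 500 genes were left out, the share of Astrocytes_3 among astrocytes had an L151/WT ratio of 0.792 (0.635 to 0.985), and with a minimum of 1000 genes of 0.571 (0.354 to 0.905). The ratio near 1 for this cluster thus holds only with its shallowest cells included.

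Mitochondrial content set the shallow clusters apart from each other. Astrocytes_2 had the highest median, with 11.9% in WT (quartiles 7.22 and 16.8%) and 13.3% in L151 (8.67 and 17.2%), which ranked 6 of 33 clusters in both libraries. Astrocytes_3, of similar depth, had 6.99% in WT (5.21 and 9.73%) and 7.20% in L151 (4.93 and 9.34%). Astrocytes_4 had 9.67% and 8.79%, Astrocytes_1 had 6.24% and 6.09%, and Astrocytes_5 had 6.12% and 5.69%, in WT and L151 respectively. The order of the 5 clusters was the same in both libraries.

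In absolute terms, the mitochondrial UMIs of a cell had a median of 183 in WT and 182.5 in L151 for Astrocytes_2, 90 and 65 for Astrocytes_3, and 477 and 466 for Astrocytes_1. Compared with Astrocytes_1, cells of Astrocytes_2 thus held fewer mitochondrial UMIs, and the gap was wider for the other UMIs, with medians of 1275 non-mitochondrial UMIs in WT and 1236.5 in L151 against 7454 and 7087.

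Cells above 10% mitochondrial content made up 61.2% of Astrocytes_2 in WT (55.7 to 66.4%) and 67.4% in L151 (62.2 to 72.3%). The shares were 23.0% and 20.6% in Astrocytes_3 and 10.3% and 8.19% in Astrocytes_1. Of Astrocytes_2, 11.3% of WT and 13.4% of L151 cells exceeded 20%, close to the limit of 25% that the study set. At the other end, 8.96% of WT and 7.14% of L151 cells of this cluster had under 1% mitochondrial UMIs, so that its cells spread over the whole permitted range. The L151/WT difference of the medians was 1.44 percentage points in Astrocytes_2, within quartiles that overlap widely, and 0.0285 points over all astrocytes.

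**Figure D4:**
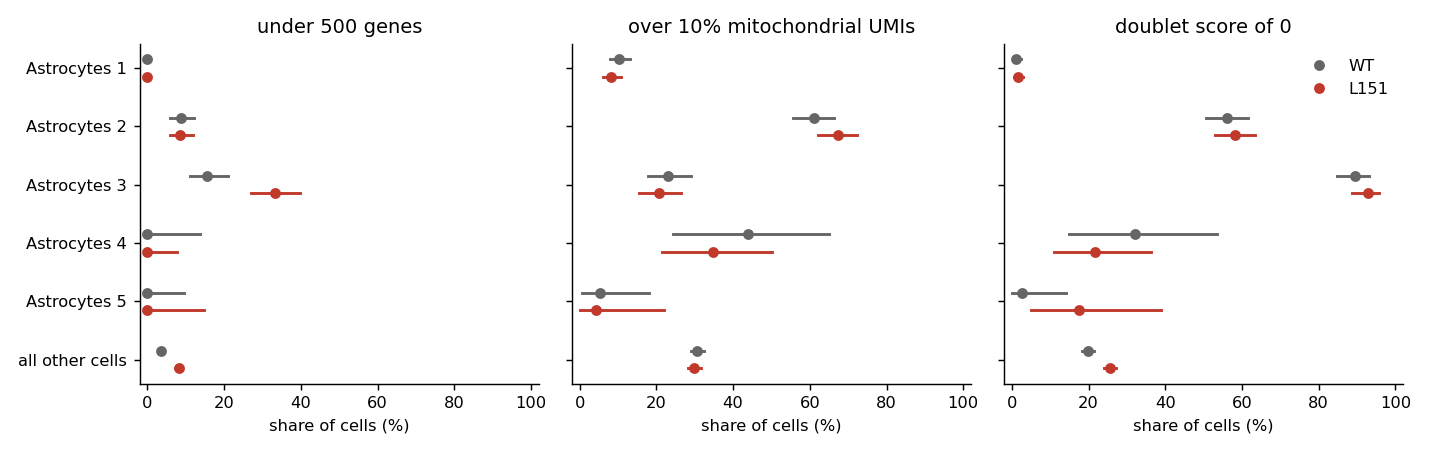
Share of cells (%) with under 500 genes, with over 10% mitochondrial UMIs and with a doublet score of 0, for each astrocyte cluster and all other cells (WT grey, L151 red, lines 95% exact binomial intervals). Under 500 genes, Astrocytes_3 is at 33.2% in L151 and 15.7% in WT, with intervals that do not overlap.

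Set against all other cells, the median astrocyte was shallower and had a higher mitochondrial percentage. Median UMIs of the other cells were 4842 in WT and 4479 in L151, median genes 2153 and 2067, and median mitochondrial content 4.81% and 5.13%, whereas astrocytes had 7.28% and 7.31%. In absolute terms astrocytes held fewer mitochondrial UMIs, with medians of 262 in WT and 244 in L151 against 324.5 and 292 in the other cells. Summed over all cells, the mitochondrial part of the UMIs was nearly equal, with 7.50% in astrocytes and 7.32% in the other cells of WT, and 7.54% and 7.64% in L151. The other cells were themselves mixed, with 12.7% and 10.5% mitochondrial content in neurons and 3.67% and 3.79% in the other non-neuronal cells. Microglia, the resident immune cells, had 1.42% and 1.43%, and oligodendrocytes, the myelinating glia, had 4.44% and 4.45%. Among the 17 main cell types, astrocytes ranked sixth in mitochondrial content in both libraries, rank 6 of 17. With both libraries as pairs, an exact permutation test cannot give a two-sided p below 0.5, so these differences are described and not tested.

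Genes per UMI, a measure of how diverse the captured RNA is, falls as a cell is read more deeply, so cells of like depth were compared. Without regard to depth, the medians over all astrocytes were 0.437 genes per UMI in WT and 0.441 in L151, close to the 0.440 of all other WT cells and below the 0.459 of all other L151 cells. Within windows of UMIs, astrocytes had fewer genes per UMI than the other cells in each of the 5 windows and in both libraries. Between 1000 and 2000 UMIs the values were 0.551 against 0.617 in WT and 0.531 against 0.625 in L151. Between 4000 and 8000 UMIs they were 0.399 against 0.427 and 0.404 against 0.418, and from 8000 to 15000 UMIs 0.311 against 0.336 and 0.310 against 0.339. Against the other non-neuronal cells alone, L151 astrocytes between 4000 and 8000 UMIs were slightly higher, with 0.404 against 0.398. From 8000 UMIs on depth was not equal, with median UMIs of 11191 against 9904 in WT and 11142.5 against 9969 in L151. Astrocytes of that window had more genes per cell, 3453 against 3397.5 in WT and 3461.5 against 3386.5 in L151.

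In narrow bins of depth, 0.05 wide on the log10 scale, the median astrocyte had 5.51% fewer genes than the other cells of its bin in WT and 7.54% fewer in L151. Of the astrocytes, 77.8% in WT and 82.6% in L151 lay below the median of the other cells. The difference was present against neurons (8.33% and 9.48% fewer) and against the other non-neuronal cells (4.26% and 4.13% fewer). Against oligodendrocytes the median astrocyte had 0.620% more genes in WT and 0.458% more in L151, but only 520 and 446 astrocytes could be matched, of which 474 and 431 were of Astrocytes_1. In the wider windows of UMIs the sign against oligodendrocytes varied, but these windows did not equalise depth between the 2 types. From 4000 to 8000 UMIs astrocytes were the shallower, with median UMIs of 6169.5 against 6912 in WT and 5956 against 6980 in L151. From 8000 to 15000 UMIs they were the deeper, with 11191 against 9779 and 11142.5 against 9366. Astrocytes had more genes per UMI between 4000 and 8000 UMIs (0.399 against 0.379 in WT, 0.404 against 0.378 in L151) and fewer from 8000 to 15000 UMIs (0.311 against 0.330 and 0.310 against 0.335). Below 4000 UMIs the libraries disagreed, with astrocyte to oligodendrocyte ratios of 0.978 in WT and 1.10 in L151 between 1000 and 2000 UMIs, and of 0.988 and 1.05 between 2000 and 4000 UMIs, over 17 to 42 oligodendrocytes. Median UMIs of astrocytes and oligodendrocytes were 1452 and 1307 in WT, and 1395 and 1599 in L151, between 1000 and 2000 UMIs. Between 2000 and 4000 UMIs they were 2692 and 2971 in WT, and 2595 and 2847 in L151. The part of depth in these signs was not tested.

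**Figure D5:**
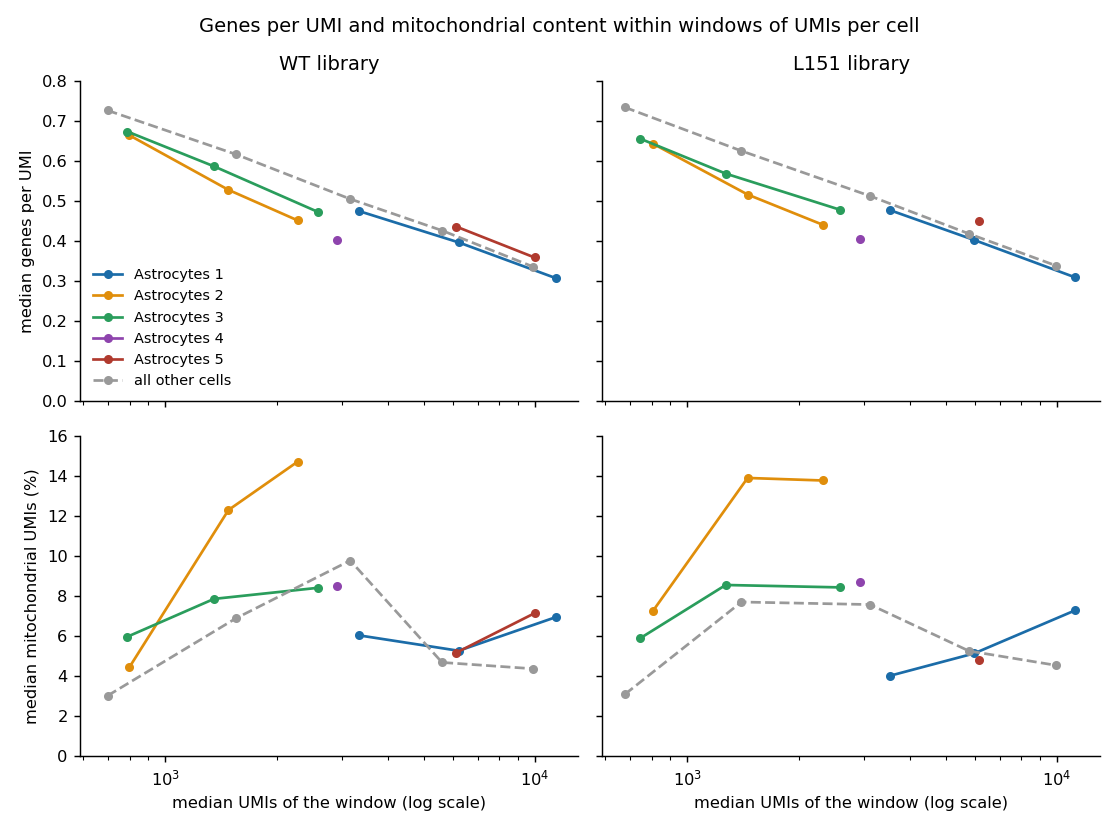
Median genes per UMI (top) and median mitochondrial percentage (bottom) within windows of UMIs per cell, placed at the median UMIs of the window on a log scale, for the WT (left) and L151 (right) libraries, with all other cells as a dashed grey line. Windows with under 10 cells are not drawn, Astrocytes_5 lies above Astrocytes_1 in genes per UMI at the same depth, and Astrocytes_2 lies above Astrocytes_3 in mitochondrial content from 1000 UMIs on.

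The clusters differed in this respect. Against all other cells of the same depth, Astrocytes_4 had 21.6% fewer genes in WT and 23.7% fewer in L151, and each of its 25 WT and 46 L151 cells lay below the median of the other cells. Astrocytes_2 had 14.2% and 15.9% fewer, Astrocytes_3 had 6.19% and 9.12% fewer, and Astrocytes_1 had 2.64% and 3.40% fewer. Astrocytes_5 was the exception, with 7.59% more genes in WT and 5.76% more in L151. Low values for Astrocytes_4 were also found against the other astrocytes, with 10.1% and 11.4% fewer genes than cells of Astrocytes_1 to Astrocytes_3 at the same depth. Depth counts all UMIs here, mitochondrial ones included. Astrocytes_2 lay 5.35 and 5.55 percentage points above all other cells of its bins in mitochondrial content, and the other clusters 0.139 to 1.64 points above. The part of this in the numbers of genes was not tested.

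A direct comparison of neighbouring clusters gave the same picture. At the same depth, cells of Astrocytes_3 had 6.62% more genes than cells of Astrocytes_2 in WT and 2.86% more in L151, and their mitochondrial content was 3.20 and 3.53 percentage points below. The difference in genes was weaker in L151. There 66 of 154 matched cells (42.9%) lay below the Astrocytes_2 median, against 34 of 195 (17.4%) in WT. Cells of Astrocytes_5 had 9.54% more genes than cells of Astrocytes_1 in WT and 8.55% more in L151, and 36 of the 37 WT cells and all of the 20 matched L151 cells were above. The mitochondrial content of Astrocytes_5 was close to that of Astrocytes_1, lower by 0.0138 points in WT and by 0.246 points in L151.

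Between genotypes, L151 cells of Astrocytes_3 had 4.13% fewer genes than WT cells of the same cluster and depth, over the 169 of 223 L151 cells that could be matched, and 74.6% of them lay below the WT median. For Astrocytes_2 the value was 2.29% fewer, with 61.3% below. For Astrocytes_1 it was 0.312% more, with 47.7% below. Oligodendrocytes (0.0317% more), microglia (0.426% fewer) and endothelial cells (0.399% more) were within 0.5% of WT, as was Astrocytes_1. These types were mostly deeper than Astrocytes_2 and Astrocytes_3. The bins count all UMIs, mitochondrial ones included. Matched L151 cells of Astrocytes_2 lay 1.12 percentage points above WT in mitochondrial content. The part of this in their lower number of genes was not tested. Between 1000 and 2000 UMIs, other non-neuronal cells had 0.614 genes per UMI in WT and 0.599 in L151. Endothelial cells had 0.642 and 0.621, and neurons 0.618 and 0.634. Between 500 and 1000 UMIs the values were 0.710 and 0.692, 0.725 and 0.726, and 0.748 and 0.745, in that order. The values of other non-neuronal cells were thus lower in L151 in both windows, and those of endothelial cells between 1000 and 2000 UMIs only. Neurons were higher in L151 between 1000 and 2000 UMIs and nearly equal between 500 and 1000 UMIs. Astrocytes had 0.551 in WT and 0.531 in L151 between 1000 and 2000 UMIs, and 0.671 and 0.654 between 500 and 1000 UMIs. In the narrow bins, all other cells together had 0.602% more genes in L151 than in WT. The spread between mice that these values would have to be read against is unknown.

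Within Astrocytes_1, the deepest cells had the highest mitochondrial percentage. In L151 the median went from 4.02% between 2000 and 4000 UMIs (33 cells) over 5.13% to 7.28% from 8000 to 15000 UMIs (240 cells). In WT the order was not monotonic, with 6.03% (49 cells), 5.26% and 6.94% (275 cells) in the same windows. Spearman's rho between UMIs and mitochondrial percentage over the cells of the cluster was 0.339 in WT (546 cells) and 0.505 in L151 (537 cells), which share a library and are no replicates. The sign was the same within Astrocytes_2 (0.353 and 0.254), Astrocytes_3 (0.383 and 0.332) and Astrocytes_5 (0.487 and 0.755), whereas in Astrocytes_4 rho was 0.0708 and -0.0694. Over all astrocytes it was -0.0979 and -0.129, and over all other cells, which mix many types, -0.0425 and 0.0728. From 8000 UMIs on, astrocytes exceeded the other cells by 2.61 percentage points in WT and 2.70 in L151, and exceeded oligodendrocytes by 2.64 and 2.94. Against neurons of that depth the difference was 0.156 points in WT and -0.294 in L151. Shallower windows gave other values. Between 4000 and 8000 UMIs the differences were -9.65 and -8.81 points against neurons, and 0.634 and -0.0949 against all other cells. Between 2000 and 4000 UMIs they were -5.36 and -4.74 against neurons, and -0.551 and 1.52 against all other cells. Against oligodendrocytes they were 0.803 and 0.713 in the former window and 1.56 and -3.21 in the latter. Between 1000 and 2000 UMIs astrocytes exceeded neurons, by 1.29 and 3.31 points.

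The doublet score set Astrocytes_5 apart from the other astrocyte clusters. Its median of 2.25 in WT (quartiles 2.15 and 2.42) and 2.24 in L151 (1.94 and 2.47) was the highest of all 33 clusters in both libraries. Astrocytes_1 had 1.51 and 1.50, Astrocytes_4 had 1.74 and 1.59, and all other cells had 1.03 and 0.989. Ependymal cells came close to Astrocytes_5, with 2.08 in WT and 2.00 in L151. The study removed the cells it took for doublets before deposit, and no source used here states the scale of the score, so the values rank cells and do not count doublets. Of Astrocytes_5, 27.0% of WT cells (10 of 37, 13.8 to 44.1%) and 34.8% of L151 cells (8 of 23, 16.4 to 57.3%) were above the 95th percentile of their library, against 4.03% and 3.54% of Astrocytes_1. The shares were 20% (5 of 25) and 8.70% (4 of 46) in Astrocytes_4, and 7.39% and 4.93% in Astrocytes_3. Astrocytes_5 thus combined a high score with more genes at the same depth, whereas Astrocytes_4, next in score, had the fewest genes at the same depth of the 5 clusters. The part of doublets in either was not tested.

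In the shallow clusters the doublet score was mostly 0. This was the case for 89.6% of WT and 92.8% of L151 cells of Astrocytes_3, for 56.1% and 58.3% of Astrocytes_2, and for 1.10% and 1.49% of Astrocytes_1. Depth moves with it: all 161 WT and 190 L151 astrocytes with under 1000 UMIs had a score of 0, and so did all other cells below that depth. Between 1000 and 2000 UMIs the shares were 68.7% and 69.0% for astrocytes and 88.9% and 90.6% for the other cells. A score of 0 in Astrocytes_2 and Astrocytes_3 can therefore not be read as a low doublet content.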

How the data were processed

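Ventral hippocampi were dissociated with papain and captured with the 10x Genomics 3′ chemistry. The submitters' processing notes name Cell Ranger 3.0.2, Seurat 3.1.3 and mm10. Before deposit they removed doublets, blood cells and droplets outside 320 to 5000 genes or above 25% mitochondrial content, and named the clusters by marker genes. The deposited counts are whole-number UMIs and genes per cell, not normalized, the deposited percent is the mitochondrial part of the UMIs, and the deposited doublet score has no stated scale. All 8477 cells were kept. Here medians, quartiles and shares were computed with pandas 2.3.3 and scipy 1.17.1 under Python 3.11.15 (numpy 2.4.6), and plots drawn with matplotlib 3.10.9. Shares have Clopper-Pearson 95% intervals, and ratios an interval derived from the exact one for the L151 fraction among the cells of a class. All of them cover counting error only. The intervals of ratios and of medians were checked on simulated data, those of shares were not. For the ratios the simulated totals were about the size of a library, not the smaller totals of its astrocytes. UMIs cannot be thinned without counts per gene, so genes were compared within UMI windows and within bins holding at least 10 reference cells. The bins, and the alternatives without single clusters or shared barcodes, were added after seeing the data. The cells and measures were chosen with earlier results of these data known. Named clusters are all 5 of astrocytes, and no gene has a value. Alternatives were minimums of 500 and 1000 genes, at most 10% mitochondrial content, leaving out the largest cluster, other denominators, and means or ranks. The libraries held 22049587 (WT) and 22276085 (L151) UMIs.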

Additional observations from a re-analysis of the deposited data

How the results depend on the processing

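Of 63 values under alternatives for 11 results, 57 stayed within the counting interval of the reported value, or for medians within the interval from order statistics, and 6 lay outside it. For the medians of UMIs and genes this interval is so wide that a value within it does not show stability. The L151/WT ratio of the astrocyte share went from 0.922 to 1.001 among non-neuronal cells and to 1.02 outside CA1 and CA3 glutamatergic neurons, which follows from the change of denominator. The ratio for Astrocytes_2 among astrocytes went from 1.04 to 0.885 with at least 1000 genes and to 0.887 with at most 10% mitochondrial content. That for Astrocytes_3 went from 0.965 to 0.792 with at least 500 genes and to 0.571 with at least 1000 genes, which keeps 56 of its WT and 30 of its L151 cells. The ratio of median UMIs over all astrocytes, 0.921 with an order-statistic interval of 0.657 to 1.34, lay between 0.875 (without Astrocytes_3) and 1.02 (at least 500 genes). That of median genes, 0.893 with an order-statistic interval of 0.680 to 1.25, lay between 0.919 (without Astrocytes_3) and 1.03 (at least 500 genes). The L151 minus WT difference of median mitochondrial content was 0.0285 percentage points, 0.487 without the largest cluster and 0.202 for means, and took the other sign with at least 1000 genes (-0.199) and at most 10% mitochondrial content (-0.0797). Differences in Astrocytes_4 and Astrocytes_5 are limited by 71 and 60 cells. No paired analysis was possible because each genotype has 1 library.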

Other observations

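Only 24 WT and 16 L151 cells of Astrocytes_3 had a doublet score above 0, and these had a median of 2.69 and 2.64, above the median of Astrocytes_5. They were also the deeper cells of the cluster, with median UMIs of 2809.5 and 2720 against 1115 and 891 for the cells at 0. In Astrocytes_1 the relation of score to depth had the opposite sign, with Spearman's rho of -0.312 over 546 WT cells and -0.263 over 537 L151 cells, while rho was 0.642 and 0.666 in Astrocytes_2. The highest score, 2.98, was shared by 21 WT and 29 L151 cells, of which 7 and 5 were astrocytes.

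UMIs of astrocytes ended at 14963 and those of all cells at 14989, although the filters stated by the study concern genes and mitochondrial content. Cells with at least 14000 UMIs made up 5.31% of Astrocytes_1 in WT (29 cells) and 4.28% in L151 (23 cells), against 1.56% and 1.30% of the cells outside the astrocytes. The highest number of genes in an astrocyte was 4413, below the limit of 5000. At the lower end, 12 astrocytes had 0 mitochondrial UMIs. The libraries share 3 cell barcodes, 1 of these 6 cells is an astrocyte, and in 0 of the 3 pairs do both cells belong to the same cluster.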
